A study of Mus musculus with 6 samples.

Results

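Basophils of the aged mouse lung are described here from droplet-based single-cell RNA sequencing of 6 lungs. A basophil was any barcode with at least 300 genes, at least 500 unique molecular identifiers (UMIs, each standing for 1 captured transcript) and at most 15% mitochondrial UMIs that carried at least 2 raw UMIs of Mcpt8, at least 1 of Ms4a2 and none of Cdh5, Cd3e or Cd79a. This gate kept 299 of 91156 retained barcodes, namely 78, 99 and 41 in p16-DTR and 33, 40 and 8 in control replicates 1, 2 and 3. All mice were males of 21 months on the C57BL/6 background. The members were thus chosen by their own measured UMIs of these 5 genes. The genotype of the 3 p16-DTR lungs was p16-CreERT2/R26-LSL-DTR, in which Cre under p16 control opens a diphtheria toxin receptor at the Rosa26 locus, and the 3 control lungs carried p16-CreERT2 without that receptor. Both groups received tamoxifen for 5 days, then, after 2 weeks, diphtheria toxin for 5 days, and were taken after 2 further weeks. Tamoxifen-activated Cre acts only in cells using the p16 promoter at that time. Each library mixed 20000 sorted CD45- cells with 9000 CD45+ cells of 1 lung, so every share below is a share of that mixture and not of the lung.

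Basophils are rare granulocytes of the blood and inflamed tissues, and lung-resident basophils have been described as well. They bind IgE through the high-affinity receptor FcεRI, built from an IgE-binding alpha chain (Fcer1a), a beta chain (Ms4a2) and a shared gamma chain (Fcer1g), and its cross-linking releases histamine, lipid mediators, proteases and the type 2 cytokines interleukin 4 and interleukin 13. They grow in response to interleukin 3, thymic stromal lymphopoietin and interleukin 33, and their identity depends on the transcription factor GATA2. In the mouse the serine proteases Mcpt8 and Prss34 are basophil products, which separates these cells from mast cells and their tryptases and chymases.

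The promoters of the genes that define and vary within the cells are shown because GATA2 transcripts were abundant in every library and because Mcpt8 and Prss34 varied together. The bases before the RefSeq start in GRCm38.p6 are given 5′ to 3′ on the strand of the gene, with matches to the GATA core GATAA, or TTATC on the other strand, in capitals. The stretches lie at chr14:56085274-56085447 on the minus strand (Mcpt8), chr17:25298144-25298393 on the plus strand (Prss34), chr19:11623720-11623969 on the minus strand (Ms4a2) and chr16:44943428-44943677 on the plus strand (Cd200r3). For Mcpt8 the bases that another annotated transcript covers are left out.
Mcpt8 promoter: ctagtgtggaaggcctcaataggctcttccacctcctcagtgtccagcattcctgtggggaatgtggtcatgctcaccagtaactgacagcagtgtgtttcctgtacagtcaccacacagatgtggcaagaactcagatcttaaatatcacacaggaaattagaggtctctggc
Prss34 promoter: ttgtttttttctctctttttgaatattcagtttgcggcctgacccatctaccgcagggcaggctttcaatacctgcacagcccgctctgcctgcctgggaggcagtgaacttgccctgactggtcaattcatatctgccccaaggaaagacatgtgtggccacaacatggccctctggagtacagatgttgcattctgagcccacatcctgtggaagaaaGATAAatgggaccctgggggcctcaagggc
Ms4a2 promoter: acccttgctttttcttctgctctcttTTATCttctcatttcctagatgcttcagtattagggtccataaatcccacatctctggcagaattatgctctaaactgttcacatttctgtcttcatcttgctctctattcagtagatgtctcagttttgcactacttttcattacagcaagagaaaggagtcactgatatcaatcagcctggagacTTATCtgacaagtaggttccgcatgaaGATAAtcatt
Cd200r3 promoter: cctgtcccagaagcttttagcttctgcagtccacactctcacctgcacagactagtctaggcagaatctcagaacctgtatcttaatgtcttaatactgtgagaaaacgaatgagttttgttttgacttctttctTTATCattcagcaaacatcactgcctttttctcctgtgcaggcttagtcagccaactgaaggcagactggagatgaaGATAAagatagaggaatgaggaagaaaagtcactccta
The Ms4a2 window held 3 matches, that of Cd200r3 held 2, that of Prss34 held 1 and the 174 bases printed for Mcpt8, a shorter stretch than the 250 of the others, held none. Of all 32851 RefSeq windows of 250 bases, 22.6% held at least 1 such match on either strand. The AP-1 core TGANTCA, searched the same way, was in 6.75% of all windows and in none of these stretches. A match is a run of letters and not a measured binding site.

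Depth was similar across the 6 libraries, which held 254200305 to 344421685 UMIs and 13025 to 16884 retained barcodes. The basophils had a median of 13211 to 18249 UMIs and 2788 to 3286 genes per cell, and their summed UMIs ran from 127130 in control replicate 3, which had 8 of these cells, to 1891197 in p16-DTR replicate 2, which had 99. The tdTomato feature had no UMI in any basophil. All retained barcodes of the p16-DTR libraries held 257 tdTomato UMIs, and those of the controls held 0. In p16-DTR replicates 1, 2 and 3 there were 89, 74 and 94 such UMIs over 14760, 15079 and 15361 retained barcodes. At so few UMIs per barcode, their absence from basophils does not set these cells apart from other cells. No basophil barcode was a basophil in another library, 5 were retained barcodes of another library, and 1000 barcode sequences were retained in more than 1 library.

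The gate drew its line through sparse values. At its edge, 12 members had exactly 2 Mcpt8 UMIs and 18 barcodes outside had 1. By Ms4a2, 8 members had exactly 1 UMI and 7 barcodes with enough Mcpt8 had none. A further 61 barcodes met both thresholds but carried Cdh5, Cd3e or Cd79a, namely 16, 24 and 10 in p16-DTR and 1, 9 and 1 in control replicates 1, 2 and 3. Their median depth was 19637 to 21327 UMIs in the 3 p16-DTR libraries, above that of the members there. In control replicates 1, 2 and 3 it was 12121, 14727 and 14945 UMIs, near that of the members, but replicates 1 and 3 rest on a single barcode each. With all 61 barcodes kept, the difference in basophil share described below was 0.384 in place of 0.300 percentage points. These edge values describe the rule and carry no test.

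Markers that the gate did not use matched the label. Cd200r3, an activating receptor of the CD200R family, stood at 1087, 1100 and 730 counts per 1000000 summed UMIs (CPM) in the p16-DTR libraries and at 854, 1059 and 1030 CPM in the controls, and 98.7% of the 299 cells had at least 1 of its UMIs. In neutrophils, gated for comparison by S100a8 and Cxcr2 in the same libraries, Cd200r3 ran from 0 to 0.0906 CPM. Fcer1a had a UMI in 98.3% of the basophils, Gata2 in 99.7% and Cpa3, a carboxypeptidase of basophil and mast cell granules, in 94.0%, against 0.0518%, 2.28% and 0.518% of 3860 neutrophils, at median depths of 15747 and 10362 UMIs. All 10 basophil markers outside the rule were detected, and their summed level was 10270 to 18793 CPM in p16-DTR and 11674 to 15653 CPM in control libraries.

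Mast cell genes were nearly absent. Of 9 mast cell markers, 6 had no UMI in any basophil, among them the tryptases Tpsb2 and Tpsab1 and the receptor Mrgprb2, and the controls had none of the 9. p16-DTR replicate 3 was the exception, with 93.0 CPM of Kit, the stem cell factor receptor, and 48.7 CPM of the chymase Cma1. The eosinophil granule genes Epx and Prg2 had 0 UMIs and a highest level of 1.76 CPM, respectively. The 5 eosinophil markers summed to 43.9 to 52.7 CPM in p16-DTR and 63.0 to 86.5 CPM in control basophils, chiefly from Ccr3 and Siglecf. The neutrophil genes S100a8 and S100a9 stayed at or under 37.7 and 41.9 CPM. The 7 neutrophil markers outside the rule summed to 257 to 366 CPM in p16-DTR and 181 to 319 CPM in control basophils, with Cxcr2 at 251 CPM over all members. Monocyte markers summed to 1063 to 1544 CPM in p16-DTR and 1118 to 1542 CPM in control basophils. Of these, Nr4a1, also an immediate early gene, averaged 845 CPM and Ccr2 186 CPM over the 5 larger basophil libraries. Neutrophils of those libraries had 736 and 189 CPM. Markers of type 2 innate lymphoid cells summed to 445 to 657 CPM in p16-DTR and 432 to 743 CPM in control basophils. Those of endothelium summed to 158 to 198 and 187 to 260 CPM, in the same order. NK cell markers summed to 0 to 65.0 CPM in p16-DTR, with the highest value in replicate 3, and to 0 CPM in every control, and T cell markers outside the rule to 5.27 to 26.6 and 0 to 2.09 CPM. Fibroblast markers (Col1a1, Col1a2, Col3a1 and Pdgfra) were present in both groups, with a summed level of 65.9 to 796 CPM in p16-DTR and 8.75 to 435 CPM in control basophils, and p16-DTR replicate 3 and control replicate 1 held the most in their groups. Across genes those 2 libraries had a rank correlation of 0.890, and p16-DTR replicate 1 one of 0.922 with p16-DTR replicate 2 and of 0.913 with control replicate 2. Of the members, 16 had at least 3 UMIs of a short list of mast cell, NK, T cell and fibroblast genes.

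Basophils were next set beside all other retained barcodes. By the ratio of CPM in basophils to CPM in all other barcodes, with 10 CPM added to both and given as description, the leading genes were the chemokine genes Ccl4 at 322 and Ccl3 at 300. They were followed by Mcpt8, which the rule used, by Cyp11a1 at 155, the enzyme that makes pregnenolone from cholesterol, and by Cd200r3 at 89.1. Osm, Prss34, Slc18a2, Cks2 and Fcer1a had ratios of 82.9, 70.3, 68.2, 67.9 and 66.5. Acod1, which makes itaconate, Il6, Il4, Csf1, Cd69 and Hdc were also among the leading 20. Outside ribosomal and mitochondrial genes, the 5 with the most UMIs in basophils were Ccl4, Gm42418, Tmsb4x, Ccl3 and Actb.

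To place these levels against another granulocyte, the summed UMIs of basophils and of neutrophils were compared within the 5 libraries that had at least 20 basophils, by edgeR's quasi-likelihood test with the library as a block and Benjamini-Hochberg adjustment over 12120 genes. Of these, 14.9% were higher in basophils and 24.1% lower at an adjusted p under 0.05. The median log2 fold change of all genes was −0.19. Genes of either gate were not tested. Without the 16 members with other lineages' UMIs, 6357 genes were called in place of 4731.

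In the IgE receptor list, the alpha chain and the adaptors Lat and Lat2 were higher in basophils, and the enzymes of proximal signalling went both ways. Of 13 genes tested, 6 were higher in basophils than in neutrophils and 4 lower, with a median log2 fold change of −0.23. Fcer1a stood at 902, 994 and 634 CPM in p16-DTR and at 573, 677 and 496 CPM in control basophils, against 0 to 0.207 CPM in neutrophils. Every basophil library was above every neutrophil sum, and the p16-DTR and control basophils overlapped. Fcer1g, the signalling chain that neutrophils use with their own Fc receptors, did not pass (1409 CPM in basophils and 1567 CPM in neutrophils, log2 fold change −0.23 ± 0.20 SE, edgeR adjusted p = 0.424). The adaptors Lat and Lat2, which pass the signal on, were higher, with log2 fold changes of 5.98 ± 0.39 and 4.69 ± 0.27 SE. The adaptors Lcp2 and Gab2 did not pass (log2 fold changes −0.41 ± 0.20 and −0.25 ± 0.13 SE, edgeR adjusted p = 0.133 and 0.171). The kinases Lyn, which phosphorylates the receptor, and Syk, which docks on it, were lower, at 273 against 2079 CPM and 137 against 1274 CPM (log2 fold changes −2.98 ± 0.14 and −3.27 ± 0.16 SE, edgeR adjusted p = 9.98e-07 and 1.15e-06). The kinases Btk, which acts on phospholipase C gamma, and Fyn, a Src family member, were higher, at 176 against 73.7 CPM and 292 against 140 CPM (log2 fold changes 1.19 ± 0.20 and 1.03 ± 0.13 SE, edgeR adjusted p = 0.00147 and 0.000324). The phospholipases also differed in direction, with Plcg1 higher at 16.2 against 3.05 CPM (log2 fold change 2.29 ± 0.32 SE) and Plcg2 lower at 35.7 against 152 CPM (−2.17 ± 0.19 SE). The inositol phosphatase Inpp5d was lower as well.

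Among receptors for growth factors and alarmins, 7 of 14 genes tested were higher in basophils and 5 lower, with a median log2 fold change of 0.88. Il3ra, the specific chain of the interleukin 3 receptor, was higher at 82.3 against 6.43 CPM, and the beta chains Csf2rb and Csf2rb2 were higher by log2 fold changes of 1.80 ± 0.20 and 4.15 ± 0.19 SE. Csf2ra, the specific chain for GM-CSF, was lower, at 8.42 against 232 CPM. Il1rl1, the interleukin 33 receptor, stood at 76.5, 247 and 60.6 CPM in p16-DTR and at 94.2, 64.8 and 47.2 CPM in control basophils, so that p16-DTR replicate 2 was well above the rest while the groups overlapped. Barcodes gated as type 2 innate lymphoid cells, 84 in all and 9 to 22 per library, too few for a test, had 996 CPM of Il1rl1. That gate itself required a UMI of Il1rl1, as well as of Gata3, Rora, Il7r and Ptprc. The gate thus set part of this level, and no comparison with basophils is drawn from it. Il7r, which pairs with the receptor for thymic stromal lymphopoietin, was higher than in neutrophils at 327 against 4.18 CPM, and its partner Crlf2 did not pass (120 CPM in both). The interleukin 18 receptor chain Il18r1 was higher by a log2 fold change of 5.23 ± 0.16 SE. Ptgdr2, the prostaglandin D2 receptor, had 0 UMIs in the 299 basophils.

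Among transcription factors, 5 of 13 were higher in basophils, 5 lower and 3 not called, with a median log2 fold change of 0.51. Gata2 stood at 1940, 1712 and 1192 CPM in p16-DTR and at 1944, 2226 and 2486 CPM in control basophils, and its log2 fold change over neutrophils was 10.16 ± 0.43 SE (edgeR adjusted p = 5.97e-07). Ikzf2, Cebpa and Runx1, a factor needed for basophil development, were higher by 5.76 ± 0.17, 2.54 ± 0.23 and 1.98 ± 0.14 SE on the log2 scale. Gata1 was also higher, at 21.9 CPM. Spi1 and Cebpb, which drive neutrophil and macrophage genes, were lower by log2 fold changes of −1.64 ± 0.15 and −1.47 ± 0.21 SE. Mitf, central to mast cells, was lower too, at 7.64 against 54.3 CPM.

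Cytokine genes were mostly higher in basophils than in neutrophils. Of 12 tested, 8 were higher and 2 lower, with a median log2 fold change of 3.48. Il4, at chr11:53602982-53618669 beside Il13, stood at 853, 1342 and 189 CPM in p16-DTR and at 213, 861 and 267 CPM in control basophils, so that p16-DTR replicates 1 and 2 and control replicate 2 were high in Il4 and the other 3 libraries low. A UMI of Il4 was found in 89.0% of the basophils and in 0.259% of the neutrophils, and after each cell was thinned to 3000 UMIs (1 shallower basophil and 162 neutrophils left out) in 58.1% and 0.135%. Il13, the second type 2 cytokine, was found in 25.4% of the basophils and in none of the 3860 neutrophils, which allows a share of cells with a UMI of up to 0.0777%. Il5, Il9 and Il3 had 0 UMIs in basophils.

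Il6 stood at 4572, 3973 and 2951 CPM in p16-DTR and at 3049, 4620 and 2478 CPM in control basophils, and was higher than in neutrophils by a log2 fold change of 8.49 ± 0.42 SE (edgeR adjusted p = 1.13e-06). Csf1, the growth factor of macrophages, ran from 2473 to 3728 CPM, and Osm, an interleukin 6 family cytokine, from 2030 to 3988 CPM. Both were higher than in neutrophils, by log2 fold changes of 4.94 ± 0.26 and 3.61 ± 0.16 SE. Hgf, which acts on epithelium through the receptor MET, stood at 1373, 1890 and 939 CPM in p16-DTR and at 1695, 1755 and 5003 CPM in control basophils. The high Hgf value of control replicate 3 came from 8 cells, of which 1 held 61.8% of the UMIs, and without that cell it was 2372 CPM. Without its highest cell, the Hgf level of control replicate 1 was 1128 CPM. Il1b was lower than in neutrophils, at 1240 against 10831 CPM, and so was Vegfa. Areg, an epidermal growth factor receptor ligand, was detected in 7.02% of the basophils.

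Chemokine genes were among those with the most UMIs in basophils. Ccl4 and Ccl3, neighbours at chr11:83662584-83664683 and chr11:83647844-83649355, led the list. Ccl4 stood at 23593, 17051 and 15945 CPM in p16-DTR and at 22960, 28766 and 34484 CPM in control basophils, and Ccl3 ranged from 8126 to 17187 CPM. All 299 cells had UMIs of both genes. Against neutrophils Ccl3 and Ccl4 were higher by log2 fold changes of 8.36 ± 0.51 and 7.90 ± 0.39 SE (edgeR adjusted p = 3.29e-06 and 1.13e-06). Ccl6 and Ccl9, ligands of CCR1, were higher by 1.45 ± 0.18 and 4.48 ± 0.30 SE on the log2 scale. Cxcl2, a neutrophil attractant, was lower in basophils (log2 fold change −1.63 ± 0.47 SE, edgeR adjusted p = 0.0224), although p16-DTR replicate 2 reached 8849 CPM against 929 to 2268 CPM in the other 5 basophil libraries. Over the list, 6 of 11 genes were higher and 4 lower, with a median log2 fold change of 0.62.

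**Figure D1:**
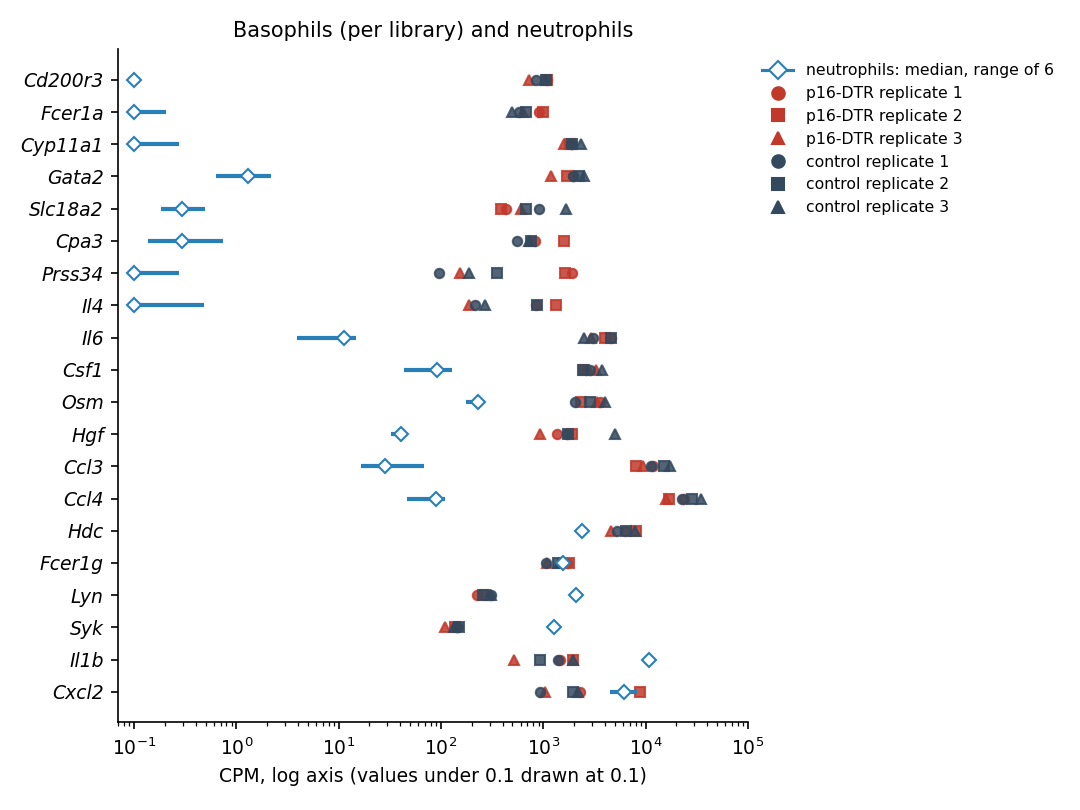
Level of 20 genes in basophils of each library (filled symbols) and in neutrophils (open diamond for the median and bar for the range of 6 libraries), in CPM on a log axis. The genes drawn are a selection from the lists, and most of the receptor, cytokine and chemokine genes among them lie far to the right of the neutrophil bars. Fcer1g and Hdc lie near them, and Lyn, Syk and Il1b lie to their left. The chemokine gene Cxcl2 was lower in basophils, with a mean of 3007 against 6350 CPM over the 5 libraries tested.

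The granule list was led by genes of basophil and mast cell granules. Of 9 genes tested, 6 were higher than in neutrophils and 2 lower, with a median log2 fold change of 4.93. Cpa3 ranged from 550 to 1602 CPM in basophils and from 0.138 to 0.738 CPM in neutrophils. Gzmb, a granzyme of cytotoxic cells that basophils also carry, stood at 489, 302 and 1164 CPM in p16-DTR and at 910, 649 and 2777 CPM in control basophils. Single cells weighed on the Gzmb sums. In control replicate 3, 1 cell with 297 Gzmb UMIs held 84.1% of them, and the level without it was 547 CPM. That cell had 24691 UMIs, 11 of them of Cd200r3. The same 2 values belong to the cell with the most Hgf UMIs and the cell with the most Prss34 UMIs in that library. In p16-DTR replicate 3, 1 cell with 300 Gzmb UMIs and 0 of Cd200r3 held 38.1%, and the level without it was 754 CPM. Leaving out the highest cell of the other libraries gave 419 and 208 CPM in p16-DTR replicates 1 and 2 and 721 and 513 CPM in control replicates 1 and 2. Serglycin (Srgn), the proteoglycan that packs granules, did not pass, at 8688 against 6959 CPM (edgeR adjusted p = 0.22). Cd63, the membrane protein that reaches the surface on degranulation, was higher by a log2 fold change of 3.70 ± 0.14 SE.

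For mediators, 5 of 11 genes were higher in basophils, 2 lower and 4 not called, with a median log2 fold change of 0.54. Hdc, which makes histamine, was higher in basophils at 6131 against 2379 CPM (log2 fold change 1.30 ± 0.19 SE, edgeR adjusted p = 0.000688), and 99.8% of the neutrophils had a UMI of it too. Slc18a2, which loads histamine into vesicles, stood at 428, 389 and 604 CPM in p16-DTR and at 908, 676 and 1660 CPM in control basophils, against at most 0.492 CPM in neutrophils. Alox5 and Ptgs2, the entry enzymes of leukotriene and prostaglandin synthesis, were higher by 1.82 ± 0.20 and 1.13 ± 0.20 SE on the log2 scale. Ltc4s, which completes leukotriene C4, was lower, with 0 to 1.48 CPM in basophils, but was near the floor in both cell types. Its means were 0.295 against 2.24 CPM (log2 fold change −3.38 ± 1.04 SE, edgeR adjusted p = 0.0302). Cyp11a1 stood at 1596 to 2360 CPM in every library.

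Of the surface genes, 9 of 12 were higher in basophils and none lower, with a median log2 fold change of 2.57. The early activation marker Cd69 ran from 1704 to 4051 CPM against 20.9 CPM in neutrophils, and the integrin Itga2, which forms the DX5 antigen, was higher by 7.69 ± 0.40 SE on the log2 scale. The immediate early and dissociation list split: 7 of 14 genes were higher, 5 lower and 2 not called, with a median log2 fold change of 0.73. Jun and Ier3 were higher by 4.02 ± 0.23 and 4.36 ± 0.21 SE, whereas Fos and Atf3 were lower. The inducible heat shock genes Hspa1a and Hspa1b stayed at or under 2.64 CPM in basophils. The lungs were digested at body temperature before the sort, and the part of that step in these levels was not tested.

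Mcpt8 separated the libraries more widely than Ms4a2. Mcpt8, a serine protease gene at chr14:56082166-56085273 that lies in the granzyme and mast cell protease cluster, chose the cells and is given as description. It had a median of 21, 101 and 10 UMIs per cell in the p16-DTR libraries and of 7, 9 and 9.5 in the controls. Per 10000 UMIs these medians were 15.8, 51.4 and 7.28 against 5.51, 7.49 and 7.06, and single cells ranged from 0.827 to 328. p16-DTR replicate 2 was thus far above the others, p16-DTR replicate 1 above the rest, and p16-DTR replicate 3 lay with the controls. Ms4a2, the other gene of the gate, had medians of 6 to 13 UMIs per cell.

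Prss34, at chr17:25298394-25300165, was not used by the gate and was uneven between cells. A UMI was found in 33 of 78, 62 of 99 and 11 of 41 p16-DTR basophils and in 10 of 33, 10 of 40 and 2 of 8 control basophils. The summed level was 1918, 1622 and 152 CPM in p16-DTR and 96.3, 354 and 189 CPM in the controls. In p16-DTR replicate 1, a single cell with 1557 UMIs held 71.3% of the Prss34 UMIs, and the level without that cell was 562 CPM. Leaving out the highest cell of each library gave 1106 and 100.4 CPM in p16-DTR replicates 2 and 3 and 71.2, 172 and 58.6 CPM in the controls.

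**Figure D2:**
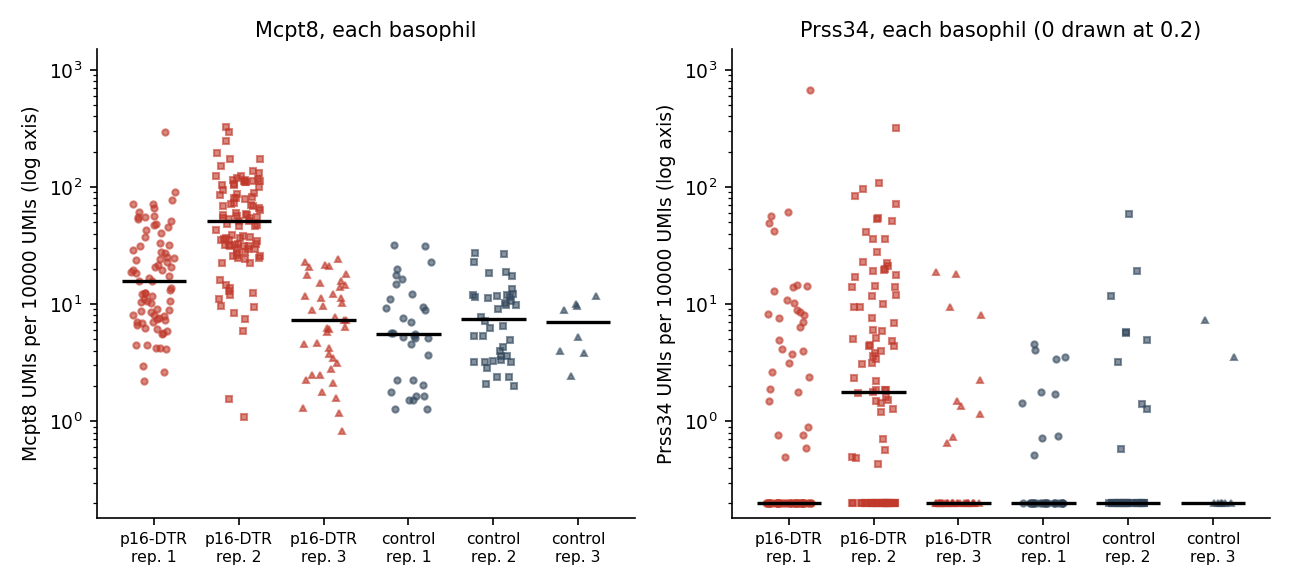
UMIs of Mcpt8 (left) and Prss34 (right) per 10000 UMIs in each of the 299 basophils, by library, on log axes with the median as a black line. Mcpt8 medians are 15.8 and 51.4 in p16-DTR replicates 1 and 2 and 5.51 to 7.49 in the other 4 libraries, and most cells outside p16-DTR replicate 2 have no Prss34 UMI.

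Within libraries Mcpt8 and Prss34 varied together, less so in p16-DTR replicate 3. Over the 77, 96, 33, 29 and 40 basophils left in the 5 larger libraries after the 16 members with other lineages' UMIs were set aside, the rank correlation of Mcpt8 with Prss34 was 0.53, 0.62 and 0.20 in p16-DTR and 0.52 and 0.56 in control replicates 1 and 2. With Slpi, a secreted inhibitor of leukocyte proteases, it was 0.53, 0.62, 0.22, 0.36 and 0.34, and with Il4 −0.02, 0.26, 0.14, 0.17 and −0.04. With Gzmb, another granule protease gene, it was 0.04, 0.11, 0.22, −0.24 and 0.26. The cells of a library share its preparation, and Mcpt8 also varied with the UMIs of the cell (0.42, 0.49, 0.04, −0.11 and 0.25). These correlations are across cells and carry no test.

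Cells above their own library's median of Mcpt8, a gene of the gate, were set beside those below it, as description. Their median depths above and below were 15804.5 and 12740, 19832 and 16904.5, and 15085.5 and 13540 UMIs in p16-DTR replicates 1, 2 and 3. In control replicates 1 and 2 they were 12967.5 and 13310, and 15603.5 and 14063 UMIs. With a mean of at least 50 CPM, 10 CPM added and the same sign in all 5 libraries, 4 of 2595 genes (0.154%) had a median ratio past 2-fold upward and 6 (0.231%) downward. The upward genes were Slpi, Ctsg, Hipk2 and Marcksl1. Ctsg, the protease cathepsin G, averaged 91.1 CPM above and 24.7 CPM below the median, and Slpi 782 and 261 CPM. Without p16-DTR replicate 2 the means were 64.0 and 15.6 CPM for Ctsg and 424 and 146 CPM for Slpi. The downward genes were Car8, Ank, Fbxo11, Lypd6b, Wdr95 and Tmcc3. Prss34 averaged 1505 and 124 CPM but did not have the same sign in p16-DTR replicate 3. Its means were 961 and 140 CPM without p16-DTR replicate 1, and 1836 and 92.9 CPM without p16-DTR replicate 3. In p16-DTR replicates 1 and 2, the cell with the most Prss34 UMIs (1557 and 1012) and the cell with the most Mcpt8 UMIs had the same total and Cd200r3 UMIs. These cells held 71.3% and 33.0% of the Prss34 UMIs of all members of their libraries, and the means of the split were not recomputed without them.

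The share of basophils among retained barcodes was compared between the groups. It was 0.528%, 0.657% and 0.267% in p16-DTR and 0.195%, 0.307% and 0.0499% in control lungs, with Wilson 95% intervals of 0.424 to 0.659%, 0.540 to 0.799% and 0.197 to 0.362% in the former. The p16-DTR mean of 0.484% ± 0.199 (SD, n = 3) was 2.63 times the control mean of 0.184% ± 0.129 (SD, n = 3), and the groups overlapped, because p16-DTR replicate 3 lay below control replicate 2. The difference of 0.300 percentage points did not pass an exact two-sided permutation test (p = 0.2, with 0.1 the smallest that 3 against 3 libraries allow). The intervals cover counting error only. As a share of barcodes with a Ptprc (CD45) UMI the means were 1.12% ± 0.501 and 0.534% ± 0.373 (SD, n = 3 each, exact permutation p = 0.2). The mixture fixed at the sort can set such shares, and without the 16 members with other lineages' UMIs the difference was 0.281 percentage points. A planned step that left out members with at least 2 UMIs of other lineages removed 271 of the 299 and turned the difference to −0.00458 percentage points (exact permutation p = 1.0). The gene list of that step held Pecam1 and Cxcr2, which had UMIs in basophil barcodes of this gate, and the step left no member in control replicate 3. Its value describes the few members left, and no conclusion on the share is drawn from it.

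**Figure D3:**
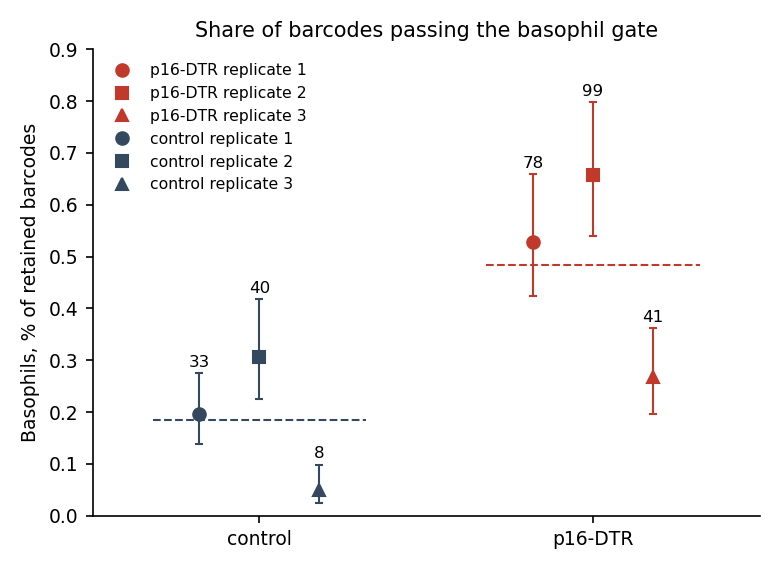
Basophils as a percentage of retained barcodes in each library, with Wilson 95% intervals, the number of basophils above each interval and dashed lines at the group means of 0.184% and 0.484%. Libraries of the groups overlap between 0.267% and 0.307%.

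Expression within basophils was compared between p16-DTR and control lungs over the library sums. Of 5450 genes tested by edgeR's quasi-likelihood test with Benjamini-Hochberg adjustment, 0 passed an adjusted p of 0.05 (0.0%), the lowest adjusted p being 0.387. At an unadjusted p under 0.05 there were 310 genes (5.69%), and DESeq2 called 8. In 441 genes (8.09%) every p16-DTR library was above every control, and in 264 (4.84%) below. Leaving out any 1 library also gave 0 calls in edgeR. So did leaving out the 16 members with other lineages' UMIs (lowest edgeR adjusted p = 0.191). Without the filter on low counts edgeR called 47 genes, 30 of them higher in p16-DTR.

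No listed gene passed with the filter on low counts, and without it Prss34 did (edgeR adjusted p = 1.09e-05). Of the 100 listed genes that were tested, 2 had p16-DTR libraries all above and 6 all below the controls, beside the 8.09% and 4.84% of all genes. The medians of the log2 fold change over control ranged from −0.41 for the 10 transcription factors to 0.45 for the 9 granule genes, against 0.01 for all genes. Serpinb1a, an inhibitor of granule proteases, had 402, 886 and 508 CPM in p16-DTR and 167, 304 and 142 CPM in control basophils, without overlap (log2 fold change 1.44 ± 0.39 SE, edgeR adjusted p = 0.846). Slc18a2 was below the controls in all 3 p16-DTR libraries, with a log2 fold change of −1.28 ± 0.35 SE and the same adjusted p of 0.846 from edgeR. The other genes without overlap were Fos, higher in p16-DTR, and Plcg2, Il18rap, Runx1, Gata2 and Ptgs2, lower in p16-DTR. Prss34 had a log2 fold change of 2.47 ± 0.88 SE with overlapping groups (edgeR adjusted p = 0.846), which ranged from 1.99 without p16-DTR replicate 1 to 3.19 without control replicate 2. Ctsg had one of 1.96 ± 0.75 SE. Il4, Il6, Csf1, Osm and Cd200r3 had log2 fold changes of 0.75, 0.11, −0.19, −0.02 and −0.08, none of which passed. The Il4 value was 0.16 without p16-DTR replicate 2, 0.40 without control replicate 1, 1.20 without p16-DTR replicate 3 and 1.75 without control replicate 2. Hgf had −1.09 ± 0.49 SE, and −0.30 without control replicate 3. Gzmb had −1.27, −0.32 without control replicate 3 and −1.90 without p16-DTR replicate 3. Cxcl2 had 1.19 ± 0.74 SE, and −0.10 without p16-DTR replicate 2.

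**Figure D4:**
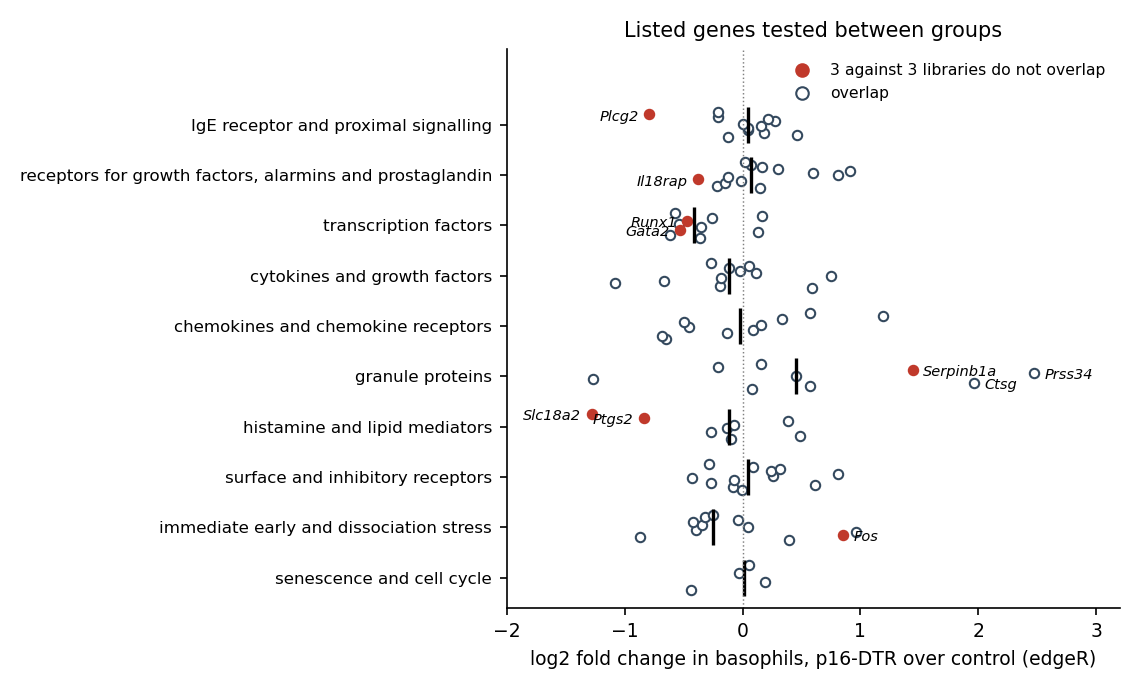
Fitted log2 fold change in basophils, p16-DTR over control, of every listed gene tested, by list. Filled points are genes whose 3 p16-DTR and 3 control libraries do not overlap, black bars are list medians, and no gene shown passed the edgeR test at an adjusted p of 0.05 with the filter on low counts.

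The gene with the lowest adjusted p was Dyrk3, a kinase that dissolves stress granules. It had 38.7, 53.4 and 39.9 CPM in p16-DTR and 4.19, 1.75 and 0 CPM in control basophils, without overlap. It did not pass with the filter on low counts (log2 fold change 3.99 ± 0.53 SE, edgeR adjusted p = 0.387). The fold change was 4.76 without control replicate 1. Dyrk3 passed without that filter (edgeR adjusted p = 7.52e-05), and DESeq2 gave it a log2 fold change of 4.06 but no adjusted p. The controls held 3 Dyrk3 UMIs in all against 172 in p16-DTR, a pooled ratio of 18.2 with an exact 95% interval of 6.12 to 89.1 that covers counting error only. Lgals1, encoding galectin 1, had 440, 1004 and 213 CPM in p16-DTR and 111, 123 and 78.7 CPM in control basophils. It passed in DESeq2 (adjusted p = 0.022) and not in edgeR with the filter on low counts (adjusted p = 0.816, log2 fold change 2.32 ± 0.55 SE), but did in edgeR without that filter (adjusted p = 3.92e-06). Its log2 fold change was 1.57 without p16-DTR replicate 2. Lgals1 also varied with Mcpt8 among cells, with rank correlations of 0.53, 0.66 and −0.04 in p16-DTR and of 0.22 and 0.22 in control replicates 1 and 2. DESeq2 placed Asap1, Fosl2, Dnajb9, Hs3st1, Dok6, Elmod3 and Gzmc lower in p16-DTR. Asap1, which turns off the ARF GTPases of membrane traffic, had 360, 359 and 270 CPM against 1036, 630 and 787 CPM (log2 fold change −1.37 ± 0.24 SE, edgeR adjusted p = 0.816, and 0.0335 without the filter on low counts). Fosl2, an AP-1 subunit, had 220, 149 and 202 CPM against 402, 347 and 496 CPM.

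Cdkn2a, the gene of p16, was found in few basophils. It had UMIs in 1 of 78, 9 of 99 and 2 of 41 p16-DTR basophils and in 0 of 33, 0 of 40 and 0 of 8 control basophils, which allow shares of cells with a UMI, not of cells expressing the gene, of up to 9.09%, 7.5% and 37.5%. The 9 positive cells of p16-DTR replicate 2 held 28 Cdkn2a UMIs, of which 8 were in 1 cell, and 3 of these cells had at least 4. The positive cell of p16-DTR replicate 1 had 4 UMIs, and both of p16-DTR replicate 3 had 1. The mean share was 5.08% ± 3.91 (SD, n = 3) in p16-DTR, with an exact permutation p of 0.1. In neutrophils of the same libraries the means were 3.08% and 0.0411% (exact permutation p = 0.1), at a median depth of 10390 and 10289 UMIs against 16294 and 13996 UMIs in basophils. After thinning to 3000 UMIs, 0, 3 and 0 of the p16-DTR basophils and none of the controls had a Cdkn2a UMI. The difference in means was then 1.01 percentage points (exact permutation p = 1.0), and without p16-DTR replicate 2 it was 0. With such cells left in 1 library only, every assignment of libraries gives the same absolute difference. That p was thus fixed in advance, and the test cannot decide whether the groups differ. Cdkn1a, the p21 gene, had 116, 172 and 78.3 CPM in p16-DTR and 201, 133 and 142 CPM in control basophils, with overlapping groups (log2 fold change −0.43 ± 0.34 SE, edgeR adjusted p = 0.903). A Mki67 UMI, from a gene of dividing cells, was found in 12.7% of the basophils and 4.20% of the neutrophils, and after thinning in 2.01% and 1.00%.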

How the data were processed

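Single-cell 3′ libraries (10x Genomics GEM-X) of 6 lungs were aligned by the authors with Cell Ranger 8.0.1 on mm10, per the submitters' processing notes, and the deposited matrices hold raw UMI counts. The members and gene lists were chosen with earlier results of these data known. Counts were summed per library over barcodes of each gate, scaled by TMM, filtered with filterByExpr and tested with edgeR 4.0.16 in R 4.3.3 (DESeq2 1.42.0 as alternative). A gene counted as called at a Benjamini-Hochberg adjusted p under 0.05. The SE printed with an edgeR log2 fold change is an approximation, the absolute fold change divided by the square root of the quasi-likelihood F statistic. No doublet caller was run, and the gate removed barcodes with Cdh5, Cd3e or Cd79a. The planned comparisons with neutrophils and with type 2 innate lymphoid cells asked for at least 20 barcodes of both gates in every library, which control replicate 3 (8 basophils) and the lymphoid gate did not reach. The neutrophil comparison over 5 libraries was therefore added after seeing the data, and the lymphoid gate is described only. Neutrophils were retained barcodes with at least 10 S100a8 and 1 Cxcr2 UMIs and without UMIs of the 5 genes of the basophil rule. Replicates are separate mice per the labels. Named genes were list members, Cdkn2a, Cdkn1a, tdTomato, genes called between groups and the 20 highest ratios to other barcodes. Dyrk3, the other genes called by DESeq2 and those set apart by the Mcpt8 split were chosen after their values were seen. Gene positions and names follow GENCODE M21, which held 30934 of the 31054 features, and promoter sequences are RefSeq's for GRCm38.p6.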

Additional observations from a re-analysis of the deposited data

How the results depend on the processing

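Control replicate 3 held 8 basophils, and fibroblast UMIs were highest in p16-DTR replicate 3 and control replicate 1 of their groups; without each of these libraries in turn edgeR called 0 genes between groups, and the difference in basophil share was 0.233, 0.408 and 0.305 percentage points. Genes called between groups were 0 in edgeR under TMM, RLE or plain library size scaling, a higher Mcpt8 threshold and the replicate block, and 0 to 0 when 1 library was left out, but 47 (30 higher) without a filter on low counts and 8 (1 higher) in DESeq2. The cause was not tested. The stricter barcode filter removed 0 members and so could not change these calls. Prss34, Lgals1, Asap1 and Dyrk3 passed without the filter. Same-numbered libraries did not pair: the correlation of their deviations from the group means was −0.48, 0.20 and −0.20, and the replicate block changed no call. Between differently numbered libraries it ran from −0.37 to 0.51. It was highest for p16-DTR replicate 3 with control replicate 1, followed by 0.31 for p16-DTR replicate 1 with control replicate 2, and no fit took this into account. The difference in basophil share was 0.214 to 0.408 percentage points with 1 library left out, and reversed to −0.00458 (exact permutation p = 1.0) without members holding at least 2 UMIs of other lineages. That planned step removed 271 of 299 members and left control replicate 3 with no UMI, so the expression comparison could not be fitted under it. Its gene list held Pecam1 and Cxcr2, which stood at 169 and 251 CPM in basophils. Which genes of the list removed the members was not tested. The Cdkn2a difference after thinning to 3000 UMIs was 0 to 1.52 percentage points with 1 library left out. The Cxcl2 log2 fold change was −0.10 to 1.66 with 1 library left out, reversing without p16-DTR replicate 2 (edgeR adjusted p = 0.999). Calls against neutrophils numbered 4731, and 3644 to 4471 with 1 library left out, 4984 with all 6 libraries and 6357 without the 16 members with other lineages' UMIs.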
